A study of Phanerodontia chrysosporium with 12 samples.

Results

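A set of 121 genes of the white-rot fungus Phanerochaete chrysosporium stood higher 1 h after oak extractives were added and was still at about that level at 3 h and 6 h. The set was taken from 13602 gene models by a rule on read levels. Members were selected on mean levels at all 4 times. Total gene reads were scaled to CPM, reads per 1000000 in the library, after 2 dominant gene models, which take a large and uneven part of the reads, were left out. Levels were then averaged over replicates as log2(CPM + 2). A gene belonged to the set when a group mean reached 10 CPM and the 1, 3 and 6 h means each lay at least 1 above the T0 mean, a 2-fold difference on that scale. The 3 h and 6 h means also had to lie within 1 of the 1 h mean, and all 9 later libraries above all 3 T0 libraries. The comparisons of T0 with each later time, and of 1 h with 3 h and 6 h, therefore entered the choice of the genes, and 3 h and 6 h were bounded against each other through the 1 h mean alone. The rises below are descriptions without a test.

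Phanerochaete chrysosporium degrades lignin and meets the defence compounds of wood as it grows. Wood extractives such as tannins and phenolics can be toxic to fungi. White-rot fungi are known for large families of enzymes and transporters that modify, conjugate or export such compounds, among them cytochrome P450s, glutathione transferases and membrane pumps. Genes that are switched on by a compound and stay on while it is present form one of the usual shapes of a transcriptional response, beside short pulses and late rises. The deposited tables list genes by numeric protein ID and do not pair the IDs with names, so no role is given to any member here. Of the 121, 2 are given by ID, those ranked 1 and 2 by the smallest of their 3 rises, and the others by their rank, level or length.

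The cultures were mycelium of the homokaryotic strain RP78, kept on malt agar and grown from plugs for 4 days at 37 °C, unshaken, in 20 ml of minimal medium with glucose and acetate buffer. All 12 cultures, T0 included, received the acetone extract of Quercus petraea heartwood, diluted from 200 mg/ml in DMSO to 100 µg/ml. Harvest followed immediately in the T0 cultures and 1, 3 or 6 h later in the rest, and each time had 3 biological replicates. Cultures kept for the same hours with DMSO alone were not analysed here, so time in culture, DMSO and the extractives cannot be told apart in any of these values. The labelled tissue could not be checked against marker genes because the IDs carry no names. In bulk mycelium, a change in the make-up of the mycelium and a change in transcript per cell cannot be told apart either.

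The libraries held 2137932 to 10697807 total gene reads, and the excluded pair of models took 3.12% to 65.9% of them. The reads left were fewest, 729521, in 1 h replicate 2 and most, 10364009, in 3 h replicate 1. A level of 0 reads allowed up to 4.11 CPM in the first of these and 0.289 CPM in the second, taking 3 reads as the limit for counting error only. When the pair was kept in the library size, 57 genes met the rule, and 27 of them were among the 121. The set is thus a set relative to the reads outside that pair. 1 h replicate 2 was the shallowest library, and in 6 h replicate 3 only 7.35% of the IDs with a mean of 5 reads or fewer had a read, against 15.0% to 77.2% in the others. Without both of these libraries 150 genes met the rule, and 104 of the 121 were among them.

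Of the 13600 gene models left, 9447 reached 10 CPM in a group mean, and 216 of these lay at least 1 above T0 at all 3 times. The bound on later change removed 48 of the 216. The demand that no library overlap removed another 47, which left the 121. Among the 9447, 4.15% had all 9 later libraries above all T0 libraries, and 1.28% met the whole rule. The thresholds cut through a continuous range of values. Of the genes that met every other condition, 29 had a smallest rise from 0.9 to under 1, and 24 members had one from 1 to under 1.1. The 3 members nearest the limit had smallest rises of 1.001, 1.006 and 1.011, and the nearest genes outside it had 0.999, 0.997 and 0.996.

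Together the 121 genes held 0.538%, 0.843% and 0.457% of the reads outside the excluded pair in T0 replicates 1 to 3. In the 1 h libraries they held 2.12%, 1.67% and 2.11%. The 3 h libraries had 2.15%, 2.55% and 1.88% and the 6 h libraries 1.61%, 2.15% and 1.89%. The mean went from 0.612% ± 0.203 in the T0 libraries to 1.97% ± 0.255 after 1 h, 2.20% ± 0.334 after 3 h and 1.88% ± 0.268 after 6 h (SD, n = 3). The T0 values stand apart from all later ones, as the choice of genes requires, while the ranges of 1, 3 and 6 h overlap. Members are ranked by level, here and below, on their mean CPM over 1, 3 and 6 h. T0 levels did not enter this ranking, so nothing is read from a change in share between T0 and later times. The 10 most abundant members by it carried 49.8% ± 7.87 of the set's reads in T0 libraries, and 54.0% ± 3.29, 55.6% ± 4.02 and 50.3% ± 0.211 after 1, 3 and 6 h. Without them the rest had 0.298% ± 0.0590 of the reads in T0 libraries, and 0.899% ± 0.0639, 0.966% ± 0.0653 and 0.937% ± 0.131 after 1, 3 and 6 h.

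The median member rose by 1.40 at 1 h (quartiles 1.17 and 1.80), 1.63 at 3 h (1.37 and 1.97) and 1.51 at 6 h (1.28 and 1.83), each a difference in mean log2(CPM + 2) from T0. The same medians over the 9447 genes reaching 10 CPM were -0.06, -0.02 and -0.11. Most rises were moderate. The smallest of a member's 3 rises was under 1.5 in 92 members, from 1.5 to under 2 in 24 and from 2 to under 3 in 5. The median rise in single libraries, against the T0 means, was lowest at 1.40, in 1 h replicate 2 and 6 h replicate 1, and highest at 1.66, in 3 h replicate 1. The T0 libraries differed more. T0 replicate 3 lay at a median of -0.32, replicate 1 at 0.12 and replicate 2 at 0.25, while the medians over the 9447 genes in these libraries were 0.03, 0.12 and -0.12.

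**Figure D1:**
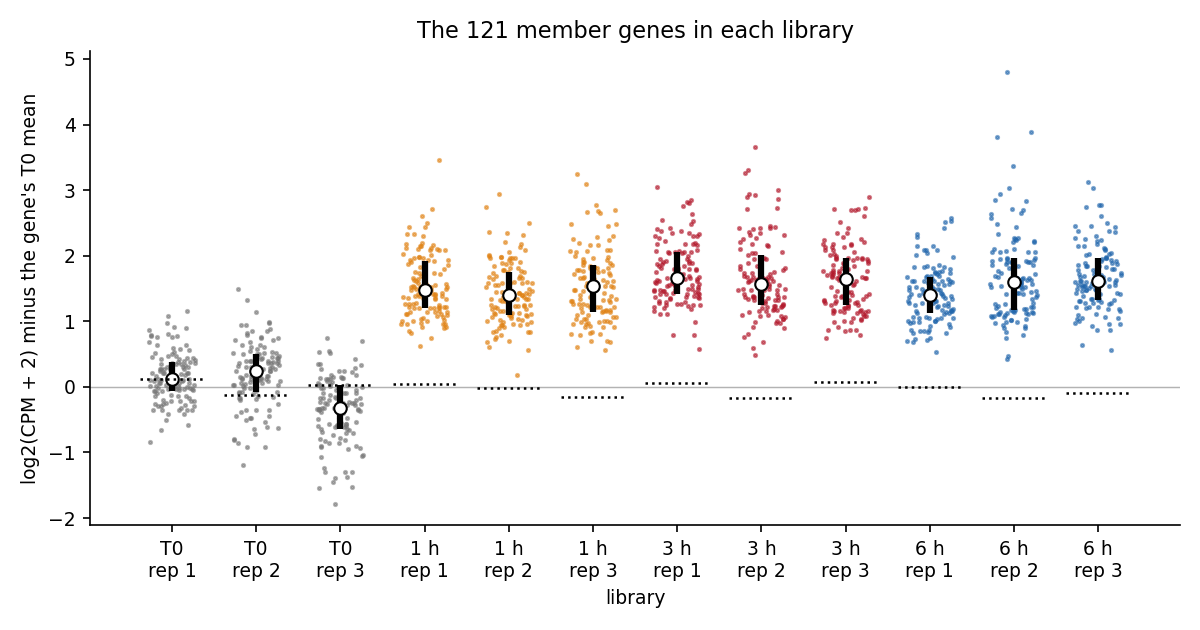
Each point is 1 of the 121 genes in 1 library, as log2(CPM + 2) minus that gene's T0 mean; the open circle is the median, the thick bar joins the quartiles, and the dotted line is the median of the 9447 genes reaching 10 CPM. Medians of the 9 later libraries lie between 1.40 and 1.66, and T0 replicate 3 has the lowest T0 median, at -0.32.

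Protein 2956261, a model of 1428 nt, ranked 1 in the set by the smallest of its 3 rises. Its level was 8.70, 10.0 and 2.45 CPM in T0 replicates 1 to 3, from 76, 16 and 3 reads. The 1 h libraries had 89.0, 61.7 and 76.9 CPM, those of 3 h had 66.8, 58.2 and 52.3 CPM, and those of 6 h had 47.5, 84.0 and 70.7 CPM. All later libraries were far above T0, with a gap of 2.04 on the log2 scale between the lowest later library (6 h replicate 1) and the highest T0 library, the widest in the set. Its mean went from 7.05 ± 4.04 CPM to 75.9 ± 13.7, 59.1 ± 7.29 and 67.4 ± 18.5 CPM after 1, 3 and 6 h (SD, n = 3). On the log2(CPM + 2) scale these are rises of 3.22, 2.87 and 3.03, or 9.29-fold, 7.33-fold and 8.15-fold. The 3 later ranges overlap, so no order among 1, 3 and 6 h stands out.

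Protein 1034931, of 1355 nt, ranked 2 by its smallest rise, although other members rose more at single times. It was at 4.69, 6.87 and 0 CPM at T0, where replicate 3 had no read, a level of up to 2.45 CPM. After 1 h its replicates had 19.0, 11.0 and 40.0 CPM, after 3 h they had 17.0, 35.5 and 14.6 CPM, and after 6 h they had 19.8, 33.2 and 27.8 CPM. The later libraries all lie above T0 but spread widely, and the value in 1 h replicate 2 rests on 8 reads. Its rises were 2.20, 2.21 and 2.53 on the log2(CPM + 2) scale. They were 1.55, 1.56 and 1.88 without T0 replicate 3, and 2.96, 2.99 and 3.33 with a pseudocount of 0.5 in place of 2. Proteins 2956261 and 1034931 shared no reads with other gene models.

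The most abundant member was a short model of 213 nt, ranked 6 by the size of its smallest rise. It stood at 516, 1943 and 328 CPM at T0 and at 4226, 2082 and 4714 CPM at 1 h. At 3 h it had 3999, 5128 and 3047 CPM, and at 6 h 2362, 2655 and 3223 CPM. T0 replicate 2 came close to 1 h replicate 2, with a gap of 0.10 on the log2 scale. Its means were 929 ± 883, 3674 ± 1400, 4058 ± 1042 and 2747 ± 438 CPM at T0, 1, 3 and 6 h (SD, n = 3). Per kilobase of model length, 4361 CPM at T0 and 19051 CPM at 3 h made it the member with the highest level.

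The member ranked 2 by level, of 864 nt, was at 724, 837 and 546 CPM at T0 and 3774, 2082 and 2676 CPM at 1 h. It was at 3525, 3769 and 3194 CPM at 3 h and 1112, 2625 and 1502 CPM at 6 h. Its 6 h libraries all lay below its 3 h libraries, and it was 1 of 2 members whose 3 h and 6 h means differed by 1 or more, a difference the rule does not bound. The other, a model of 423 nt, went the other way, from 9.26, 48.0 and 11.7 CPM at 3 h to 18.8, 110 and 48.4 CPM at 6 h, with overlapping libraries. The member ranked 3 by level, of 402 nt, had a 3 h mean of 951 ± 838 CPM that rested on replicate 2. That library had 1914 CPM, against 542 and 396 CPM in replicates 1 and 3.

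**Figure D2:**
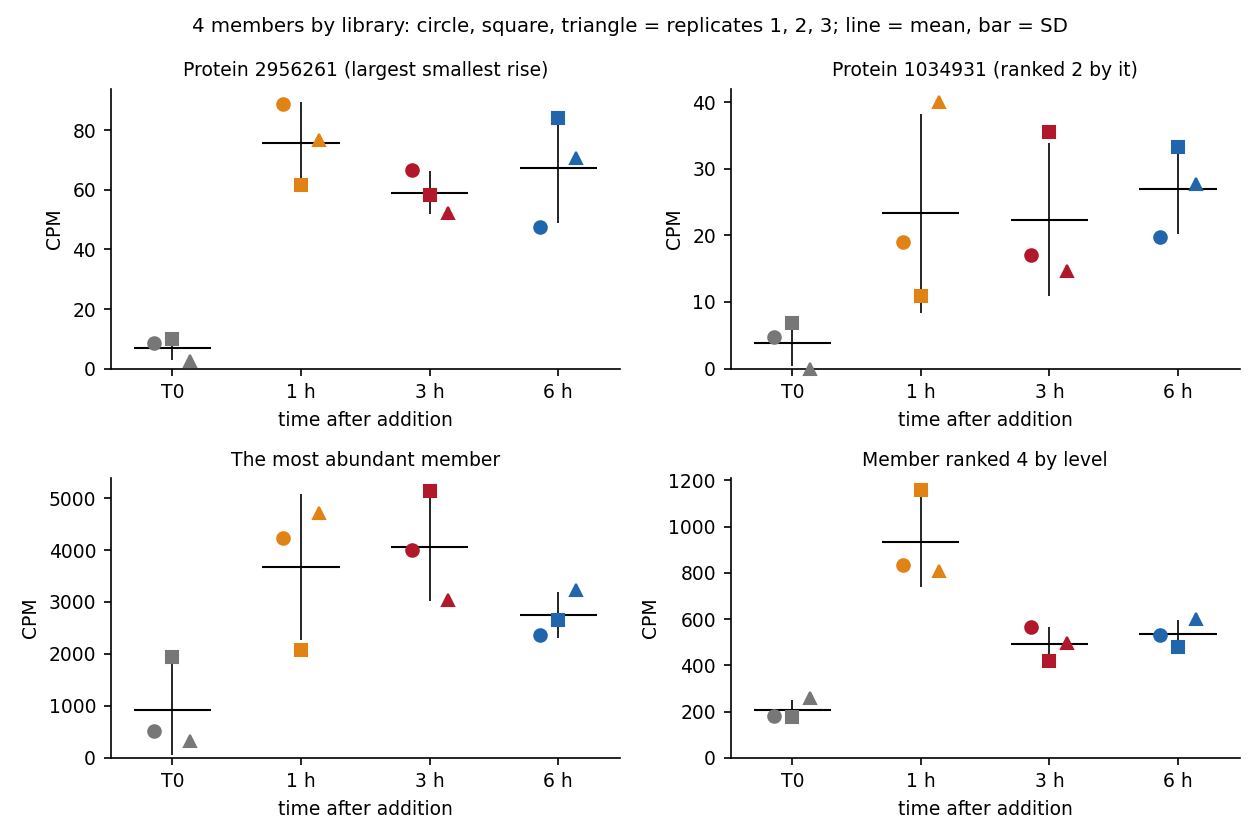
Level in CPM, on axes that start at 0, of the 2 members ranked first by the smallest of their 3 rises and of the members ranked 1 and 4 by level; circles, squares and triangles are replicates 1, 2 and 3, lines are means and bars SD (n = 3). In all 4 genes the T0 libraries lie below the 9 later ones, and the member ranked 4 by level is highest in the 3 libraries at 1 h.

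The levels of the members were spread widely. Mean level at T0 was under 5 CPM in 20 members, from 5 to under 20 CPM in 43, from 20 to under 100 CPM in 44, and at least 100 CPM in 14. The median was 15.3 CPM (quartiles 6.73 and 47.8), against 46.3 CPM over the 9447 genes reaching 10 CPM. Per kilobase of length, the median member ranked at percentile 31.7 of those genes at T0, and at percentiles 68.0, 74.0 and 72.2 after 1, 3 and 6 h. At T0, 7 members were among the top 10% of those genes per length, and 24, 26 and 25 were at 1, 3 and 6 h. The rule demands a rise and lets a later group alone meet the limit of 10 CPM. A low T0 level and a higher rank later therefore follow from the choice of genes, and nothing is read from them. The smallest rise, which the rule cuts off at 1, had little rank relation to the starting level. Across the 121 members, Spearman's rho between mean log2(CPM + 2) at T0 and the smallest rise was -0.05. With the rises at 1, 3 and 6 h it was 0.02, -0.15 and -0.06. Median rises at 3 h in the 4 level classes, from under 5 CPM upward, were 1.95, 1.67, 1.53 and 1.62. These values are a description, since rise and starting level use the same T0 libraries.

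Counting error weighed most at T0. The median member had 146, 28 and 16 reads in T0 replicates 1 to 3, and 663 in 3 h replicate 1. In T0 replicate 3, 48 members had under 10 reads and 7 had none, and in T0 replicate 2 these numbers were 27 and 2. Under 10 reads were found for 13 members in 1 h replicate 2, for 3 in 1 h replicate 3 and for 0 in the other later libraries. At least 10 reads in every library were found for 70 members, or 57.9%, against 78.9% of the 9447 genes. Their median rises of 1.40, 1.56 and 1.47 at 1, 3 and 6 h stand beside 1.41, 1.72 and 1.57 in the other 51. The median SD between replicates on the log2(CPM + 2) scale was 0.50 in T0 libraries, and 0.29, 0.24 and 0.33 after 1, 3 and 6 h. Over the 9447 genes it was 0.44, 0.34, 0.28 and 0.32. In 63 members the SD was largest at T0.

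The distance between T0 and the later libraries was narrow in many members. Its median was 0.45 on the log2(CPM + 2) scale. It was under 0.25 in 28 members and at least 1 in 4. The highest T0 value was in replicate 2 for 60 members, in replicate 1 for 42 and in replicate 3 for 19, and the lowest was in replicate 3 for 72. Among the later libraries the lowest value fell in 1 h replicate 2 for 31 members, in 6 h replicate 1 for 24 and in 3 h replicate 1 for 1.

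After 1 h the members kept their level within the bounds of the rule, and within them several shapes were present. The 1 h mean was the highest in 26 members, the 3 h mean in 61 and the 6 h mean in 34. Over the 9447 genes these shares were 39.1%, 38.2% and 22.7%. The most frequent order was 3 h above 6 h above 1 h, in 40 members. A steady climb from 1 h through 3 h to 6 h was seen in the means of 23 and a steady decline in those of 14. The 3 later means lay within 0.5 of each other in 62 members and within 0.25 in 23. An example of the latter is a model of 717 nt, with 32.7 ± 14.8 CPM in T0 libraries and 118 ± 33.7, 117 ± 47.7 and 120 ± 15.6 CPM after 1, 3 and 6 h (SD, n = 3).

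The 26 members that were highest at 1 h had median rises of 1.83, 1.34 and 1.31 at 1, 3 and 6 h. The 61 that were highest at 3 h had 1.30, 1.82 and 1.49, and the 34 highest at 6 h had 1.31, 1.42 and 1.61. Part of these differences comes from the grouping itself. Between 1 h and 3 h the mean went up in 84 members, and by more than 0.5 in 29. It went down by more than 0.5 in 8. Between 1 h and 6 h, 17 members gained more than 0.5 and 11 lost more than 0.5. The median changes were 0.20 from 1 h to 3 h, 0.14 from 1 h to 6 h and -0.07 from 3 h to 6 h, against 0.06, -0.04 and -0.08 over the 9447 genes. From 1 h to 3 h the quartiles were -0.11 and 0.49 in the members, whose change the rule bounds, and -0.31 and 0.43 over the 9447 genes.

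**Figure D3:**
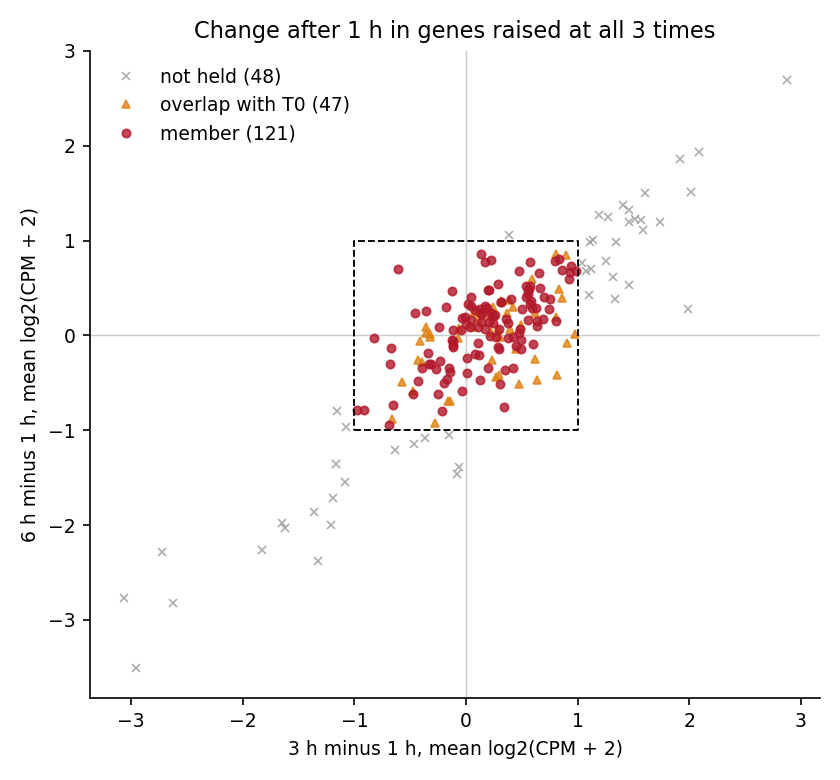
Change in mean log2(CPM + 2) from 1 h to 3 h (horizontal) and from 1 h to 6 h (vertical) in the 216 genes that reached 10 CPM and lay at least 1 above T0 at all 3 times; the dashed square is the bound of 1. The 121 members lie inside the square, 84 of them to the right of 0 on the horizontal axis, the 47 genes removed for overlap lie among them, and the 48 removed for later change lie outside, on both sides.

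The member ranked 4 by level, of 1038 nt, stood out within these shapes. It was at 180, 178 and 259 CPM at T0 and at 835, 1160 and 808 CPM at 1 h. It then had 564, 418 and 497 CPM at 3 h and 532, 479 and 599 CPM at 6 h. Its 1 h libraries all lie above its 3 h and 6 h libraries. It was the 1 member, chosen here after its values were seen, that differed between 1 h and 3 h in the test across all genes, with a log2 fold change of -0.96. Its adjusted p in edgeR was 0.044. The call ended with a replicate block (adjusted p = 0.078) and with no filter on low counts (0.051). It also ended with the libraries of 1 h and 3 h fitted alone (0.059) and in 9 of 12 fits that left out a library (0.030 to 0.203 over the 12). The call held in edgeR with DESeq2 size factors (0.044), upper quartile scaling (0.049), unique reads (0.044), at least 5 CPM in 3 libraries (0.039) and the excluded pair left out (0.041). It held in limma-voom (adjusted p = 0.023) and DESeq2 (adjusted p = 0.0005).

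That test was edgeR's quasi-likelihood fit over 11813 genes with Benjamini-Hochberg adjustment, and all 121 members were tested. Between 1 h and 3 h it called 1 member, where 3.95% of all genes were called in either direction, and 0 members between 1 h and 6 h, where 4.92% were. Between 3 h and 6 h it called 0 members, against 0% of all genes. At an unadjusted p under 0.05 there were 14, 12 and 7 members in these comparisons, or 11.6%, 9.92% and 5.79%, beside 17.5%, 18.3% and 3.61% of all genes. DESeq2 called 4, 3 and 0 members, beside 9.32%, 10.4% and 0.0305% of all genes. The rule keeps genes with little change from the 1 h mean and bounds 3 h against 6 h through that mean alone, so nothing is read from these counts. A call that was not made does not show that a level stayed the same.

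Against T0, the same edgeR fit called 82 of the 121 members higher at 1 h, where 3.10% of all genes were called higher. For 3 h and 6 h it called 108 and 104 members, beside 4.97% and 4.35% of all genes. These counts are set beside the background only for reference, since the rule used the same contrasts. Of the members, 75 were called higher at all 3 times, 30 at 2 times, 9 at 1 time and 7 at none. Across all genes 130 were called higher at all 3 times. The 75 members are 57.7% of those and 62.0% of the set. The lists differ in more than the use of adjusted p. The 130 genes did not have to keep their level after 1 h, and their fit kept the excluded pair and used another scaling. When 1 library was left out, the 82 at 1 h dropped to 43 (T0 replicate 1), 45 (T0 replicate 3), 44 (1 h replicate 1) or 38 (1 h replicate 3). The share of all genes called higher dropped with them, from 3.10% to 1.34%, 1.35%, 1.50% and 1.09%. The 104 at 6 h dropped to 67 with T0 replicate 1 left out, where 2.02% of all genes were called higher.

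Length was not named in the rule, but the levels it used carried length trends that differed between libraries, as given below. The members were short. Their median model length was 1008 nt (quartiles 717 and 1374), against 1356 nt (908 and 1947) over the 9447 genes reaching 10 CPM. The longest had 2649 nt. Models over 3000 nt made up 8.17% of the 9447 genes and 0 of the 121, and models under 500 nt 6.27% and 10.7%. The 112 genes that met the rule with its signs turned, lower and held, had a median of 1527 nt. Within the set, the shortest 32 members had a median smallest rise of 1.34 and the longest 30 had 1.17.

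Libraries differed in how level related to length. The slope of log2(CPM + 2) on log2 length, relative to each gene's mean over libraries, was 0.23, -0.19 and 0.32 in T0 replicates 1 to 3. The 1 h libraries had -0.11, 0.06 and -0.28, those of 3 h had 0.11, -0.19 and 0.20, and those of 6 h had -0.08, 0.01 and -0.09. Long models were thus favoured in T0 replicates 1 and 3, and short ones in T0 replicate 2, the T0 library in which the members were highest. With each library's trend removed, an alternative added after the data were seen, 119 genes met the rule, of which 97 were among the 121. The median length of those 119 genes was 1204 nt, between the 1008 nt of the set and the 1356 nt of the 9447 genes. The median rises of the 121 were then 1.36, 1.61 and 1.43 at 1, 3 and 6 h.

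**Figure D4:**
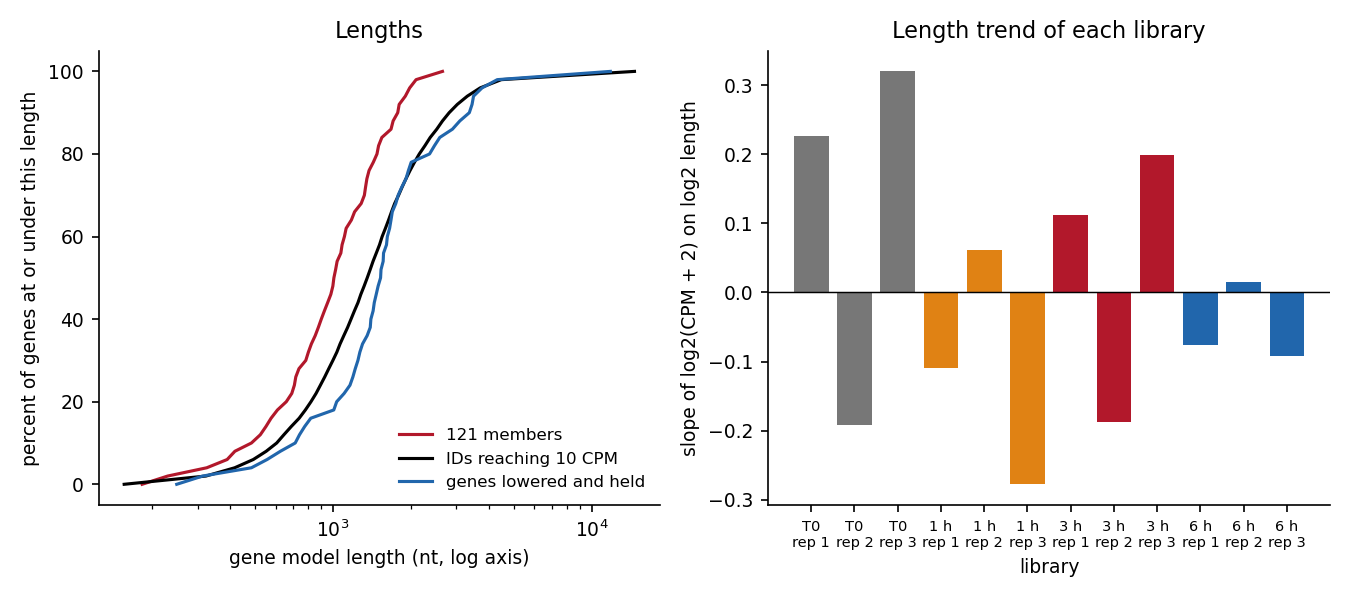
Left, cumulative percent of genes by gene model length (log axis) for the 121 members, the 9447 genes reaching 10 CPM and the 112 genes lowered and held; the member curve lies to the left, with a median of 1008 nt against 1356 and 1527 nt. Right, slope of log2(CPM + 2) on log2 length in each library, from -0.28 in 1 h replicate 3 to 0.32 in T0 replicate 3.

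Reads shared with other gene models were absent from most members. In 102 of the 121 every read was unique to the model, or 84.3% against 86.9% of the 9447 genes. More than 10% of the reads were shared in 5 members, or 4.13% against 2.68% of the 9447 genes, with 34.9% as the highest share. Near-identical copies could split such reads, so the levels of these 5 are less certain. All 5 also met the rule on unique reads. The member with the highest share, of 1322 nt, had rises of 1.96, 1.74 and 1.16 on total reads and 1.77, 1.61 and 1.11 on unique reads.

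With single libraries left out, the number of genes that met the rule moved most with T0 replicates 1 and 2. It was 223 without T0 replicate 2 and 193 without T0 replicate 1, and these held 105 and 113 of the 121. Without T0 replicate 3 it was 110, with 87 of the 121. Leaving out any other single library gave 113 to 138 genes. A library left out also loosens the demand that no library overlap. Among the 121, the highest T0 value was in T0 replicate 2 for 60 members and in T0 replicate 1 for 42. With each of the 12 libraries left out in turn, 54 members met the rule every time. They had a median smallest rise of 1.46 and a median T0 level of 31.1 CPM, against 1.15 and 12.0 CPM in the 67 that were lost at least once.

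**Figure D5:**
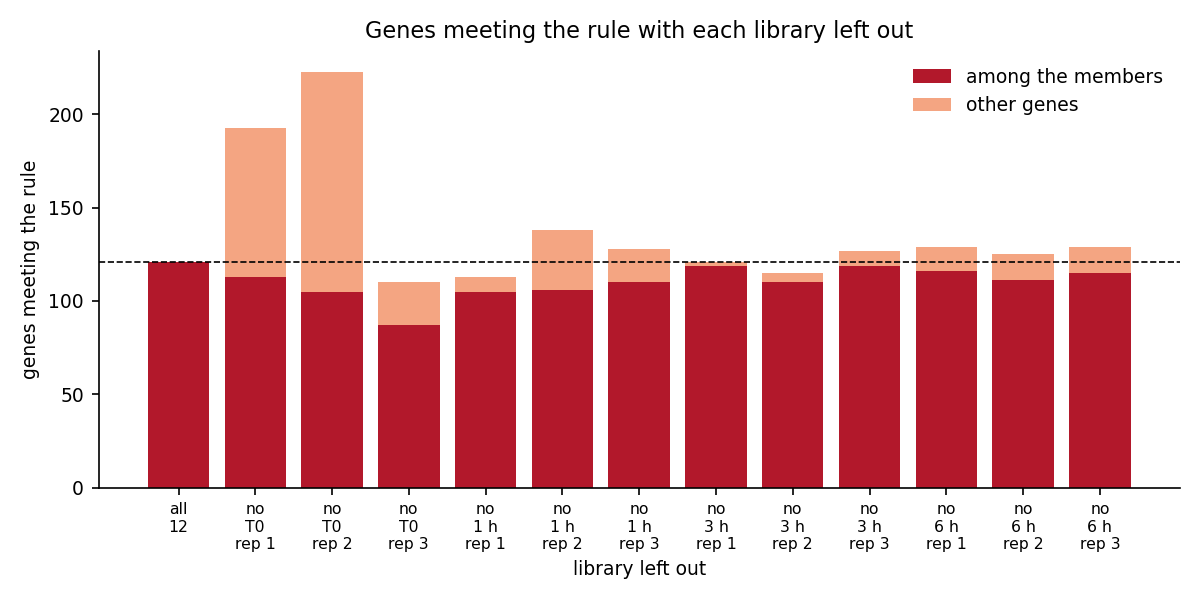
Number of genes that met the rule with all 12 libraries and with each library left out; the dark part of a bar counts genes among the 121 and the light part others. The bars without T0 replicates 1 and 2 reach 193 and 223 genes, and the dark part is smallest, at 87, without T0 replicate 3.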

How the data were processed

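RNA of 12 cultures was sequenced, per the labels' protocols with standard Illumina libraries on total RNA. Each table the authors deposited gives, for 13602 protein IDs and per the file headers, the count of unique reads, the count of total reads and an RPKM value. The deposited counts of total reads were used as they are. The deposited RPKM values served only to recover gene model lengths. The aligner, like the read counter, annotation, genome build and strand setting, was not given in the sources used here. Groups follow the titles in the labels.

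The members and lists were chosen with earlier results of these data known. The rule and all medians were computed in Python 3.11.15. Counts were fitted in R 4.3.3 with edgeR 4.0.16 (glmQLFit, TMM scaling, filterByExpr, the group as the only term, all 12 libraries), and a gene was called at an adjusted p (Benjamini-Hochberg) under 0.05. DESeq2 1.42.0 and limma 3.58.1 were alternatives. Scripts were checked on simulated counts. The closest replicates (3 h replicates 1 and 3) still had a chi-square of 8.07 per degree of freedom over genes, where sampling noise alone gives about 1, so all 12 were kept as separate samples. Replicate numbers come from the titles and no label ties them to a shared day or batch. Deviations from the group means correlated above 0.1 in all 3 same-numbered pairs of T0 and 3 h (0.476, 0.586 and 0.371), and in no other comparison did all 3 pairs. These cultures may be paired, but T0 replicate 1 and 3 h replicate 3, of other numbers, had 0.419. The slopes on log2 length also ran in the same order, at 0.23, -0.19 and 0.32 in T0 replicates 1 to 3 and 0.11, -0.19 and 0.20 at 3 h. Whether these length trends account for the correlations was not tested. A pairing is thus not established. The main fit has no term for replicate number, and counts with a replicate block are given below. Genes given by ID are the 2 with the largest smallest rise. The planned lists by gene product were not used, since the IDs carry no names.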

Additional observations from a re-analysis of the deposited data

How the results depend on the processing

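With the scale, threshold or reads changed, the rule gave 57 genes with all total gene reads as library size, 29 with a rise of at least 1.5, 258 with one of 1.5-fold and 72 with a later change under 0.5. Each library left out in turn gave 110 to 223 genes. The other settings stayed within 1.5 times the 121, among them TMM scaling (139), DESeq2 size factors (140), unique reads (120), a pseudocount of 0.5 (137) or 5 (82) and, added after the data were seen, reads thinned to 729521 per library (99 to 127 genes in 9 random draws, of which 77 to 92 were among the 121). The median rise at 1 h was 1.63 with a pseudocount of 0.5. With all total gene reads as library size the median rises were 1.17, 2.01 and 1.81 at 1, 3 and 6 h, and the medians of the 9447 genes reaching 10 CPM were -0.21, 0.48 and 0.28. That setting differs from the main one only in counting the excluded pair in the library size. The pair took a mean of 34.0% ± 25.8 of the reads at T0. After 1, 3 and 6 h it took 40.2% ± 28.4, 7.64% ± 6.98 and 14.9% ± 3.74 (SD, n = 3). Why the share of the pair differed was not tested. In 21 alternatives no rise of proteins 2956261 and 1034931 moved by more than the spread between replicates, which is wide at T0.

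Members called higher by edgeR numbered 38 to 92 at 1 h, 74 to 107 at 3 h and 67 to 108 at 6 h with a library left out, beside 1.09% to 6.16%, 2.49% to 5.34% and 2.02% to 6.15% of all genes. Members called between 1 h and 3 h (1 in the report) were 2 with upper quartile scaling, 5 CPM in 3 libraries or limma-voom, 4 by DESeq2 and 0 with no filter or a replicate block, and 0 to 2 with a library left out. Between 1 h and 6 h (0 in the report) there was 1 with DESeq2 size factors in edgeR, 5 CPM in 3 libraries or limma-voom, 3 by DESeq2, and 0 to 1 with a library left out. Against T0, edgeR with the libraries of the 2 groups alone called 56, 76 and 74 members higher at 1, 3 and 6 h. The shares of all genes were then 2.44%, 3.35% and 2.28%, and 118 members were tested at 1 h. DESeq2 called 107, 115 and 120 members higher, beside 6.53%, 7.83% and 7.28% of all genes. Counts and shares by limma-voom lay between these at each time. The replicate block gave 89, 107 and 98 members called higher at 1, 3 and 6 h (2.89%, 4.48% and 3.70% of all genes). Between T0 and 3 h, where same-numbered libraries deviated together, it changed the count by 1. In the other 5 comparisons 2 of 15 same-numbered pairs had a correlation above 0.1, and over all comparisons 9 of 36 pairs with other numbers were above it. Depth limits the T0 levels most, since 48 members had under 10 reads in T0 replicate 3.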
